A study of Mus musculus with 25 samples.

Results

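The cadherins and genes of epithelial-mesenchymal transition were followed through inhibitor-treated and *Ctnnb1*-mutant mouse embryonic stem (ES) cells. The 10 members were *Cdh1*, *Epcam*, *Cldn6*, *Cdh2*, *Vim*, *Fn1*, *Snai1*, *Zeb1*, *Klf6* and *Prss23*, taken by gene symbol from a table of 48440 genes. They were chosen with earlier results of these data known. The share of members called, set beside that of all genes, is therefore a description and not a test. Bulk 3′ RNA sequencing with unique molecular identifiers was available for 25 libraries of E14 ES cells, a mouse line kept without feeders in medium with serum and leukemia inhibitory factor. The study asked how β-catenin mutations of different strength, or inhibition of its kinase GSK3, change transcription.

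The 10 libraries of unedited (wild-type) E14 cells had been given 0, 2.5, 5, 7.5 or 10 µM CHIR99021, a GSK3 inhibitor that stabilizes β-catenin, for 48 h, with 2 libraries per dose. The other 15 libraries were clones at 0 µM, each heterozygous for 1 of 11 missense mutations at codon 37, 41 or 45 of *Ctnnb1*, the phosphorylation sites through which β-catenin is marked for degradation. By the study's classes of mutational effect, the strong class held 9 clones (S37A, S37C, S37Y, and 2 clones each of S37F, T41A and T41I), the medium class 3 (2 of S45F and 1 of S45P), and the weak class 3 (S45C, T41N and T41S). These classes were drawn in part from the same libraries, so a difference between them is not independent evidence of the direction. Each mutant library came from 1 clone, and T41N, T41S, S45C and S45P were each represented by a single clone. Clones had passed through targeting, selection and colony picking, and nothing in the labels says that the unedited cells had, so mutation and cloning cannot be told apart in a comparison of clones with unedited cells. The labels do not say that libraries of 1 dose came from separate cultures, so the p-values measure the spread between libraries.

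In epithelia, E-cadherin (*Cdh1*) joins neighbouring cells at adherens junctions and holds β-catenin at the membrane through its cytoplasmic tail. During epithelial-mesenchymal transition, factors of the Snail and Zeb families repress *Cdh1* and other junction genes, while N-cadherin (*Cdh2*), vimentin and fibronectin rise. ES cells are themselves epithelial-like and express *Cdh1* at a high level, and β-catenin takes part both in their junctions and in Wnt target transcription.

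The Snail and Zeb factors bind the E-box CAGGTG, which reads CACCTG on the other strand, and this motif was looked for on both strands of 300-base promoter windows of RefSeq (GRCm38.p6), from 250 bases before to 50 after the transcription start. Windows were searched for 6 members, *Epcam*, *Cldn6*, *Snai1*, *Vim*, *Klf6* and *Prss23*. The E-box was present in *Epcam*, *Cldn6* and *Snai1* and in 5 of the 7 windows of *Prss23*, and not in *Vim* or *Klf6*. Some *Prss23* windows overlap and hold the same E-box. It was in 20.2% of all 32851 windows, and 22.6% of the 27025 genes had it in at least 1 window. The cores CTTTGA and CTTTGT, which TCF and LEF factors bind, were found in *Snai1* and *Klf6* (31.2% of all windows and 34.5% of genes, both strands), and no match overlapped an E-box. The windows of *Epcam* and *Cldn6*, the adhesion members that were lower in the strong clones, and of *Snai1*, the factor that was higher with the inhibitor, are printed 5′ to 3′ on the plus strand with the E-boxes in capitals, at chr17:87635729-87636028, chr17:23679115-23679414 and chr2:167537945-167538244:
Epcam: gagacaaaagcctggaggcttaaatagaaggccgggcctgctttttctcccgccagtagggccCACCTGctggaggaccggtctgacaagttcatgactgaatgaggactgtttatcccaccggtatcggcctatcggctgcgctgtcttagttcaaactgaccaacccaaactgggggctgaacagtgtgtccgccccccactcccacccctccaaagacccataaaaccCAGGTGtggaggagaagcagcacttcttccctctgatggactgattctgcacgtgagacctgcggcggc
Cldn6: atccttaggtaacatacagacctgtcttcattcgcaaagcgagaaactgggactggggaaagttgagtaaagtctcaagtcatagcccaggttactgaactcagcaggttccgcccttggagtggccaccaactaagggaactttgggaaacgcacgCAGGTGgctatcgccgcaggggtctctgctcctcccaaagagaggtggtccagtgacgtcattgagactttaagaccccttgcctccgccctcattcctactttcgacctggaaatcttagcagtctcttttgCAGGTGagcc
Snai1: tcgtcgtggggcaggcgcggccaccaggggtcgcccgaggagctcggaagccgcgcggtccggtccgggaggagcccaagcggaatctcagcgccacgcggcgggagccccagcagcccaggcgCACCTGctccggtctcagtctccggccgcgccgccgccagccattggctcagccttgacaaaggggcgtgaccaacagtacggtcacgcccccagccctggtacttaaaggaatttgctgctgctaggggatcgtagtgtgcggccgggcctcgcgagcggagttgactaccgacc
Counted from +1 at the first transcribed base, the E-boxes begin at −187 and −19 in *Epcam*, at −93 and 41 in *Cldn6* and at −126 in *Snai1*. A match is a description of these letters and was not tested for binding.

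Levels are given as CPM, a gene's counts scaled to a library total of 1000000. The libraries held 306157 to 2083398 counts, and where a gene had 0 counts its level could still be as high as 3 counts, or 1.44 to 9.80 CPM over the libraries. The 10 µM replicate 1 library was the smallest, so *Snai1*, *Zeb1* and *Cdh2*, with 0 to 45 counts per library, were the least precise members. Counting intervals and floors cover counting error only. In 4 unedited libraries (0 µM replicate 2 and replicate 1 of 2.5, 5 and 10 µM) mitochondrial transcripts took 0.485 to 0.562% of counts, and in the other 6 they took 0.986 to 1.46%. All 10 ES cell markers were detected, and their summed level lay between 2294 and 6091 CPM. *Ctnnb1* itself was at 484 ± 33.5 CPM in the clones (SD, n = 15) and 455 ± 48.1 CPM in the unedited cells (SD, n = 10). In bulk samples fewer cells of a type and less RNA per cell cannot be told apart.

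*Cdh1* (ENSMUSG00000000303, chr8:106603351-106670246), *Epcam* (ENSMUSG00000045394, chr17:87635979-87651129) and *Cldn6* (ENSMUSG00000023906, chr17:23679249-23682446) lie on the plus strand of GRCm38. The same strand holds *Vim* (ENSMUSG00000026728, chr2:13573927-13582826), *Snai1* (ENSMUSG00000042821, chr2:167538195-167542814) and *Klf6* (ENSMUSG00000000078, chr13:5861482-5870394). *Fn1* (ENSMUSG00000026193, chr1:71585520-71653200) and *Prss23* (ENSMUSG00000039405, chr7:89507783-89527187) lie on the minus strand, and *Cdh2* (ENSMUSG00000024304) and *Zeb1* (ENSMUSG00000024238) on chromosome 18. All 10 are annotated as protein-coding.

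With rising inhibitor, *Fn1* and *Snai1* rose and *Epcam* fell, while *Cdh1* stayed between 737 and 846 CPM in all 10 libraries. These were the 3 of 10 members called in the trend over dose, against 12.5% of the 10033 genes tested. *Vim* stepped up at the lowest dose and did not climb further, and its linear trend did not pass. All 10 members had passed the filter on low counts, *Snai1* and *Cdh2* only through libraries at 5 µM and above, where they were high.

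*Cdh1*, the main cadherin of ES cells, was at 844 and 747 CPM without inhibitor and at 790.4 and 846 CPM at 10 µM. Its levels overlapped at all doses, and its trend over 10 µM was 0.06 ± 0.11 on the log2 scale (SE, adjusted p = 0.763). *Epcam*, an epithelial adhesion molecule that is also a marker of undifferentiated ES cells, was at 227 and 242 CPM at 0 µM. It was at 157 and 175 CPM at 2.5 µM, 120.1 and 186 at 5 µM, 159.6 and 164 at 7.5 µM, and 134 and 139 CPM at 10 µM. Both untreated libraries lay above all 8 treated ones. The fall over 10 µM was 0.66 ± 0.15 on the log2 scale (SE, adjusted p = 0.00249), a 1.58-fold decrease. *Cldn6*, a tight junction claudin of early embryonic epithelia, ranged from 102 to 144 CPM over the doses with no order (log2 change 0.17 ± 0.15 SE, adjusted p = 0.525).

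Among the mesenchymal members, fibronectin (*Fn1*), an extracellular matrix protein, was at 624 and 529 CPM at 0 µM. It was at 809 and 969 CPM at 2.5 µM, 909.7 and 1043 at 5 µM, 1012 and 1075 at 7.5 µM, and 931 and 1073 CPM at 10 µM. No treated library overlapped the untreated ones. The trend was 0.73 ± 0.15 on the log2 scale per 10 µM (SE, adjusted p = 0.00111), 1.66-fold. Vimentin (*Vim*), the intermediate filament protein of mesenchymal cells, was at 147 CPM in both untreated libraries, and at 313 and 332 CPM at 2.5 µM. It was at 319 and 299 CPM at 5 µM, at 249 and 266 CPM at 7.5 µM, and at 300.5 and 232 CPM at 10 µM. The step lay between 0 and 2.5 µM, where the groups did not overlap, and the higher doses were no higher than the lowest. A straight line over the doses gave a log2 change of 0.45 ± 0.24 (SE, adjusted p = 0.246), whereas the mean of 7.5 and 10 µM against 0 µM gave 0.81 (adjusted p = 4.05e-06). *Cdh2*, the cadherin of neural and mesenchymal cells, rested on 3 to 23 counts per library. It was at 3.80 and 6.38 CPM at 0 µM and at 26.1 and 3.77 CPM at 10 µM, and the libraries of the top dose lay on both sides of all others. Its trend was 1.25 ± 0.56 (log2, SE, adjusted p = 0.154), and without 10 µM replicate 2 it was 2.23 (adjusted p = 0.00641).

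*Snai1*, which encodes the Snail repressor of junction genes, was at 3.26 and 2.13 CPM at 0 µM. It was at 5.75 and 6.10 CPM at 2.5 µM, 9.87 and 9.12 at 5 µM, 9.43 and 12.7 at 7.5 µM, and 9.80 and 9.04 CPM at 10 µM. Each dose up to 5 µM lay above the one before, and the 3 upper doses overlapped. *Snai1* passed the low-count filter only through libraries at 5 µM and above, where it was high. With no filter its log2 trend was 1.58 (edgeR adjusted p = 0.0396). The trend with the filter was 1.58 ± 0.47 on the log2 scale (SE, adjusted p = 0.0232) and rested on 2 to 22 counts per library. It no longer passed without 0 µM replicate 1 (adjusted p = 0.202), 0 µM replicate 2 or 7.5 µM replicate 2, with DESeq2 (adjusted p = 0.0680), or within the 6 libraries of the higher mitochondrial share (log2 change 1.45, adjusted p = 0.112). *Zeb1*, the other repressor, was at 0 counts in 10 µM replicate 1 (up to 9.80 CPM) and at 1.06 to 11.6 CPM elsewhere, so no trend was detectable at this depth (adjusted p = 0.542). *Klf6*, a zinc-finger factor, ranged from 63.8 to 111 CPM and *Prss23*, a secreted serine protease, from 21.8 to 31.3 CPM. Neither followed the dose (adjusted p = 0.485 and 0.960).

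**Figure D1:**
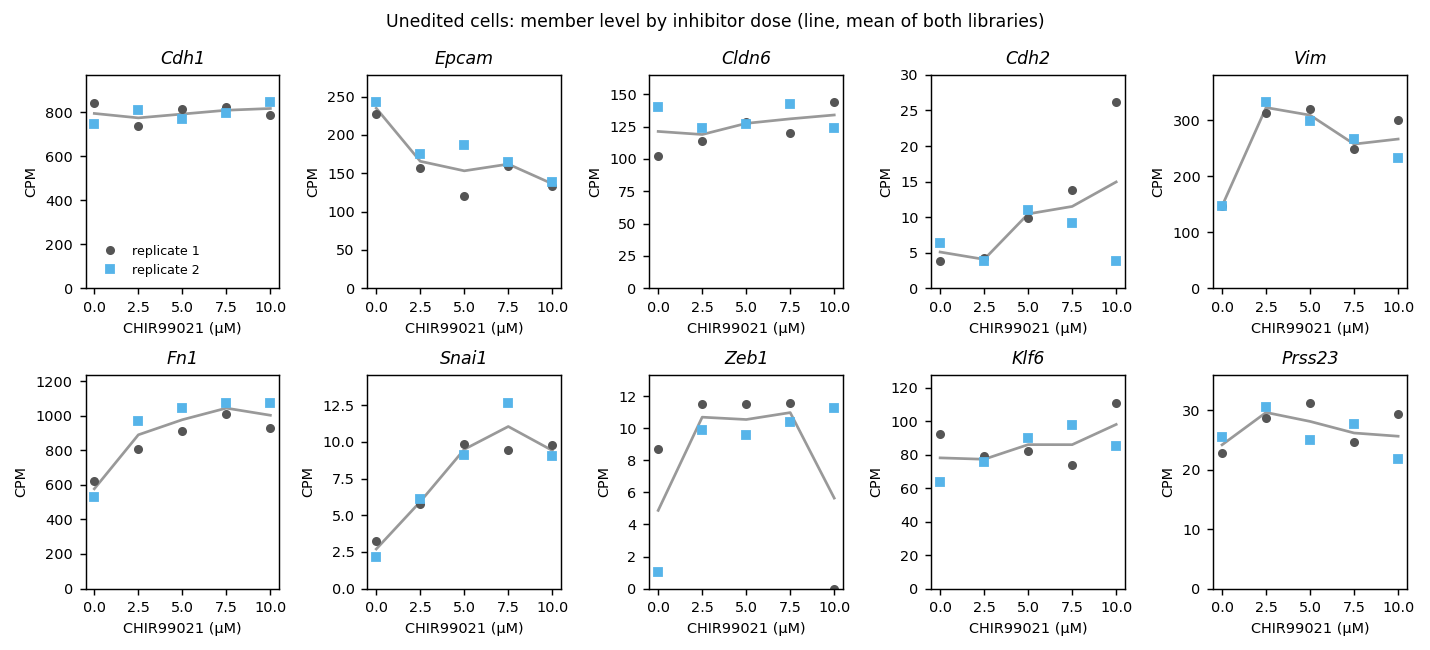
CPM of each member (vertical axis, from 0) against the CHIR99021 dose in µM (horizontal axis) in the 10 unedited libraries, with 1 marker per replicate and a line through the mean of each dose. *Vim* steps from 147 CPM to 313 and 332 CPM at 2.5 µM, *Fn1* and *Snai1* climb, *Epcam* declines from 227 and 242 CPM, and *Cdh1* is level.

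Along the dose, 8 of 22 tested mesenchymal and matrix genes rose and 1 fell (median log2 change 0.44, against 0.01 over all genes). They included *Cd44*, a hyaluronan receptor (2.25 ± 0.43, adjusted p = 0.000528), and *Tagln*, an actin-binding protein of smooth muscle (1.24 ± 0.23, adjusted p = 0.000305). *Serpinh1*, a collagen chaperone, rose from 110.3 and 118 CPM at 0 µM to 285 and 339.7 CPM at 10 µM. Of 31 tested epithelial junction and identity genes, 6 rose and 4 fell (median 0.26). The keratin genes *Krt8* (1.28 ± 0.22, adjusted p = 0.000150) and *Krt18* (1.13 ± 0.23, adjusted p = 0.000795) were among those that rose, and *Pkp3*, a desmosomal plakophilin, was among those that fell (−1.10 ± 0.37, adjusted p = 0.0493). Of 10 tested transition factors and inducers 4 rose and 1 fell, with *Tgfb2*, a TGF-β ligand, at 4.35 and 6.38 CPM without inhibitor and 26.1 and 28.6 CPM at 10 µM. *Tgfb2* passed the low-count filter only through treated libraries. Of 7 other cadherins and catenins 1 rose. Each of these counts is to be read against the 12.5% of all 10033 genes called in this trend. Without 0 µM replicate 1 the mesenchymal count was 4 up and 0 down of 22, the epithelial count 3 up and 2 down of 31, and the factor count 0 up and 1 down of 11. With that library left out 527 genes were called in all, in place of 1258. With the dose, 7 of 10 ES cell markers fell and 1 rose, and the summed level of 8 mesoderm and primitive streak markers went from 19.1 and 22.8 CPM to 149.9 and 176 CPM at 10 µM. Their part in the member changes was not tested.

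Across the mutant clones the pattern was another one. The 9 strong clones had less *Cldn6*, *Epcam*, *Cdh2*, *Vim*, *Klf6* and *Prss23* than the 3 weak clones, and no member was called higher. Some junction and some mesenchymal members were thus lower together, and of the transcription factors only *Klf6*. In all, 6 of 10 members were called, against 29.7% of the 10452 genes tested (1326 higher and 1775 lower). *Cdh1*, *Fn1*, *Snai1* and *Zeb1* were not called. Grouped by codon alone, with the 5 clones of codon 37 against the 4 of codon 45, no member was called (324 genes, edgeR), and the log2 values of the 6 were −0.35 to −2.01 (adjusted p = 0.308 to 0.605).

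*Cdh1* was at 610.3 to 846 CPM in the strong clones (median 802), at 617, 760.0 and 801 CPM in the medium clones and at 751, 801 and 1201 CPM in the weak clones. Only T41S H8, at 1201 CPM, stood above the rest. The difference of strong from weak clones was −0.27 ± 0.13 on the log2 scale (SE, adjusted p = 0.127), and without T41S H8 it was 0.01 (adjusted p = 0.960). *Epcam* was at 117 to 179 CPM in the strong clones (median 138) and at 182 (T41N), 216 (T41S) and 252 CPM (S45C) in the weak clones. The classes did not overlap, though 179 and 182 CPM were close, and the difference was −0.60 ± 0.14 (log2, SE, adjusted p = 0.00195). *Cldn6* separated the 3 classes. It was at 35.7 to 53.7 CPM in the strong clones (median 44.0), at 69.7, 82.8 and 98.5 CPM in the medium clones, and at 164 (S45C), 216 (T41N) and 423 CPM (T41S) in the weak clones. No class overlapped another, and strong clones were 6.20-fold lower than weak ones (log2 −2.63 ± 0.19 SE, adjusted p = 1.91e-09).

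Vimentin was at 87.1 to 155 CPM in the strong clones (median 107) and at 267 (S45C), 662 (T41N) and 782 CPM (T41S) in the weak clones. It was 4.88-fold lower in the strong class (log2 −2.29 ± 0.24 SE, adjusted p = 2.54e-07). *Cdh2* was at 2.23 to 5.51 CPM in the strong clones, from 3 to 9 counts each, and at 15.1, 28.2 and 25.4 CPM in S45C, T41N and T41S, from 10 to 45 counts. Its classes did not overlap, and the difference was −2.61 ± 0.33 (log2, SE, adjusted p = 3.16e-06). *Cdh2* passed the low-count filter only through the weak clones and S45P G5, where it was high. With no filter the difference was −2.55 (edgeR adjusted p = 9.09e-09). *Fn1* did not go with the other mesenchymal members. It was at 529 to 642 CPM in the strong clones (median 606), within the 361, 589 and 803 CPM of the weak clones (log2 0.02 ± 0.15 SE, adjusted p = 0.962).

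*Klf6* was at 47.9 to 65.4 CPM in the strong clones (median 55.9) and at 139, 157 and 249 CPM in S45C, T41N and T41S. It was 3.38-fold lower in the strong class (log2 −1.76 ± 0.15 SE, adjusted p = 1.83e-08), with no overlap. *Prss23* had the largest spread of the 10 members on the log2 scale (SD 1.76 over the 15 clones). It was at 3.20 to 14.5 CPM in the strong clones (median 8.18) and at 58.8, 111 and 302 CPM in S45C, T41N and T41S. The strong class was 21.0-fold lower (log2 −4.40 ± 0.38 SE, adjusted p = 1.77e-08). T41S H8 was the highest clone for *Cldn6*, *Vim*, *Klf6* and *Prss23*. Without it all 6 members were still called, with log2 values of −0.58 (*Epcam*), −2.05 (*Cldn6*), −2.46 (*Cdh2*), −1.93 (*Vim*), −1.38 (*Klf6*) and −3.36 (*Prss23*), and 1655 genes were called in place of 3101. *Snai1* reached up to 14.8 CPM in the strong clones (median 6.94) and was at 4.04 to 7.54 CPM in the weak ones, and *Zeb1* at 3.10 to 15.8 and 3.95 to 8.07 CPM. For both genes the weak clones lay within the strong range, and no difference was detectable at this depth (adjusted p = 0.714 and 0.380).

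**Figure D2:**
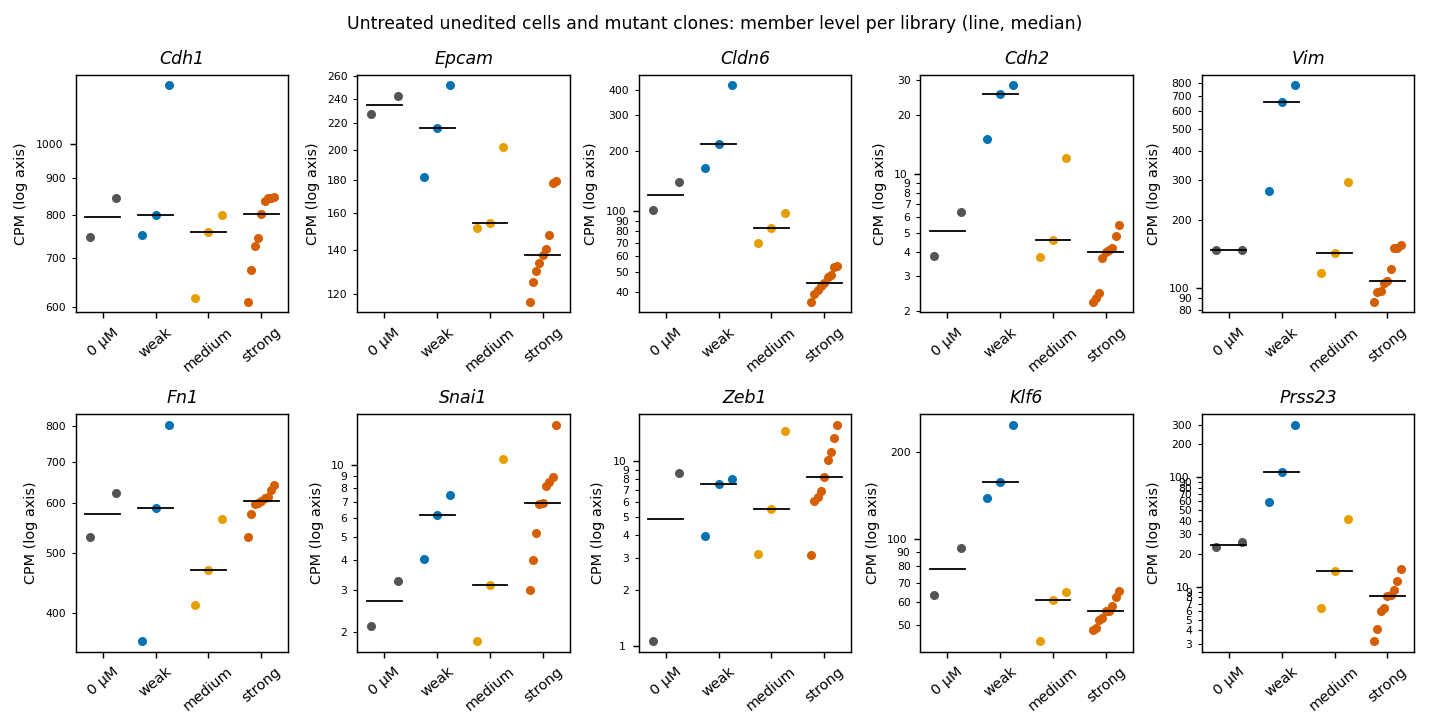
CPM of each member on a log axis in the 2 untreated unedited libraries (0 µM) and in the weak, medium and strong clones, 1 point per library with a line at the median. *Cldn6*, *Klf6* and *Prss23* are highest in the 3 weak clones. *Vim* is highest in T41S and T41N, with the medium clone S45P G5 above the weak clone S45C D3. *Cdh1* and *Fn1* overlap between classes.

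Substitutions of the same residue were set side by side with no test. At codon 41, the 4 clones with alanine or isoleucine had 96.5 to 149.5 CPM of *Vim*, and the asparagine and serine clones had 662 and 782 CPM. *Prss23* was at 5.99 to 14.5 CPM in the former and at 111 and 302 CPM in the latter. At codon 45, *Vim* was at 116 and 142 CPM in the S45F clones, 293 CPM in the S45P clone and 267 CPM in the S45C clone. *Cldn6* ran in the order 82.8 and 69.7 (S45F), 98.5 (S45P) and 164 CPM (S45C). At codon 37, the 5 clones with alanine, cysteine, phenylalanine or tyrosine lay within 40.9 to 48.1 CPM for *Cldn6* and 87.1 to 155 CPM for *Vim*. For the 4 mutations with 2 clones, the clones of 1 mutation differed by an SD of 0.11 on the log2 scale for *Cldn6*, against 1.04 over all 15 clones. The same pair of values was 0.32 and 0.98 for *Vim*, 0.44 and 1.76 for *Prss23*, and 0.19 and 0.23 for *Cdh1*. The spread of *Cdh1* over clones was thus close to that between clones of 1 mutation. The 4 mutations were S37F, S45F, T41A and T41I. None was of the weak class, so the spread between clones of a weak mutation was not measured.

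The medium clones lay nearer to the strong than to the weak clones for most members. Against the weak clones, which both comparisons share, 5 of 10 members were lower (11.1% of the 10452 genes tested were called, 379 higher and 776 lower). These were *Cldn6* (log2 −1.77 ± 0.25), *Cdh2* (−1.94 ± 0.43), *Vim* (−1.72 ± 0.33), *Klf6* (−1.75 ± 0.21) and *Prss23* (−3.21 ± 0.52, SE), with adjusted p between 5.07e-05 (*Klf6*) and 0.00477 (*Cdh2*). *Epcam*, at 152 to 202 CPM in the medium clones, was not called (−0.38 ± 0.17, adjusted p = 0.162). S45P G5 was the highest medium clone for *Vim* (293 CPM), *Prss23* (41.3 CPM), *Cldn6* (98.5 CPM) and *Cdh2*, and it lay above the S45C clone for *Vim*, so that the classes overlapped for this gene. Without T41S H8, *Cdh2* no longer passed (log2 −1.77, adjusted p = 0.0750), 275 genes were called in place of 1155, and *Cldn6* and *Prss23* were at −1.18 and −2.15. *Cdh2* also missed the threshold without S45F C1, and without S45C D3 *Fn1* passed (−0.56, adjusted p = 0.0144). Without S45P G5 the difference in *Prss23* was −3.96.

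Between strong and medium clones *Cldn6* alone of the members differed (1.82-fold lower in strong clones, log2 −0.86 ± 0.21 SE, adjusted p = 0.0264), against 4.53% of the 10452 genes. This call was lost without any 1 of the 3 medium clones (adjusted p = 0.0549 to 0.121) and when counts were summed per mutation (log2 −0.92, adjusted p = 0.0735). *Vim* (−0.57 ± 0.27, adjusted p = 0.240) and *Prss23* (−1.19 ± 0.54, adjusted p = 0.221) were lower in strong clones without passing. *Klf6* was at 44.0 to 65.3 CPM in the medium clones, which overlapped the strong range of 47.9 to 65.4 CPM (−0.01 ± 0.18, adjusted p = 0.984).

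The untreated unedited cells gave the background of the clones. Compared with them, the strong clones had less *Epcam*, *Cldn6*, *Klf6* and *Prss23*, and overlapping ranges of *Cdh1*, *Vim* and *Fn1*. These 4 of 10 members were called, all lower, against 34.0% of the 11375 genes tested, so the share of members called is close to the background. *Cldn6* was at 102 and 140.3 CPM without mutation and at 35.7 to 53.7 CPM in the strong clones (log2 −1.41 ± 0.21 SE, adjusted p = 9.61e-06). *Epcam* was at 227 and 242 CPM and at 117 to 179 CPM (−0.70 ± 0.15, adjusted p = 0.000491), a difference also seen with the inhibitor. *Prss23* was at 22.8 and 25.5 CPM and at 3.20 to 14.5 CPM (−1.58 ± 0.50, adjusted p = 0.0143). *Klf6* was at 92.4 and 63.8 CPM, the lower of which fell within the strong range (−0.51 ± 0.19, adjusted p = 0.0322). With either untreated library left out *Prss23* did not pass, and without 0 µM replicate 1 *Klf6* was at −0.20 (adjusted p = 0.667). *Vim* was at 147 CPM in both untreated libraries and at 87.1 to 155 CPM in the strong clones (−0.30 ± 0.27, adjusted p = 0.409). The 3 weak clones lay above both untreated libraries for *Vim*, *Cldn6*, *Klf6*, *Prss23* and *Cdh2*, a comparison given as values with no test. *Snai1* was higher in strong clones by 1.38 ± 0.56 (log2, SE) without passing (adjusted p = 0.0576), and passed without S37C G12 or T41A C1 (adjusted p = 0.0440 and 0.0340).

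A strong mutation and a high inhibitor dose left 6 of the 10 members at different levels. *Vim*, *Fn1*, *Cdh2*, *Cldn6*, *Klf6* and *Prss23* were lower in the 9 strong clones than in the 4 libraries of 7.5 and 10 µM, and no member was higher. The share called among all genes was 47.0% of 11375, so a member called is little more than the background here. *Vim* was at 232 to 300.5 CPM in the top-dose libraries and at 87.1 to 155 CPM in the strong clones (−1.14 ± 0.21 log2, SE, adjusted p = 4.59e-05). *Fn1* was at 931 to 1075 CPM and at 529 to 642 CPM (−0.79 ± 0.12, adjusted p = 3.24e-06). Neither set overlapped. *Cldn6* (−1.57 ± 0.17), *Prss23* (−1.67 ± 0.42) and *Klf6* (−0.71 ± 0.15) differed as well (adjusted p = 2.54e-08, 0.00174 and 0.000286). *Cdh2* differed by −1.47 ± 0.40 (adjusted p = 0.00305), and without 10 µM replicate 1 by −0.82 (adjusted p = 0.131). It passed the low-count filter through no strong clone, and with no filter differed by −1.43 (edgeR adjusted p = 0.00155). *Epcam* was at 134 to 164 CPM under the top doses and within the strong range (−0.07 ± 0.13, adjusted p = 0.675), and *Cdh1* differed by −0.10 ± 0.11 (adjusted p = 0.455). Mitochondrial shares were 1.53 to 2.52% in the clones and 0.485 to 1.46% in the unedited libraries, so any comparison of clones with unedited cells carries that gap, and its part was not tested.

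**Figure D3:**
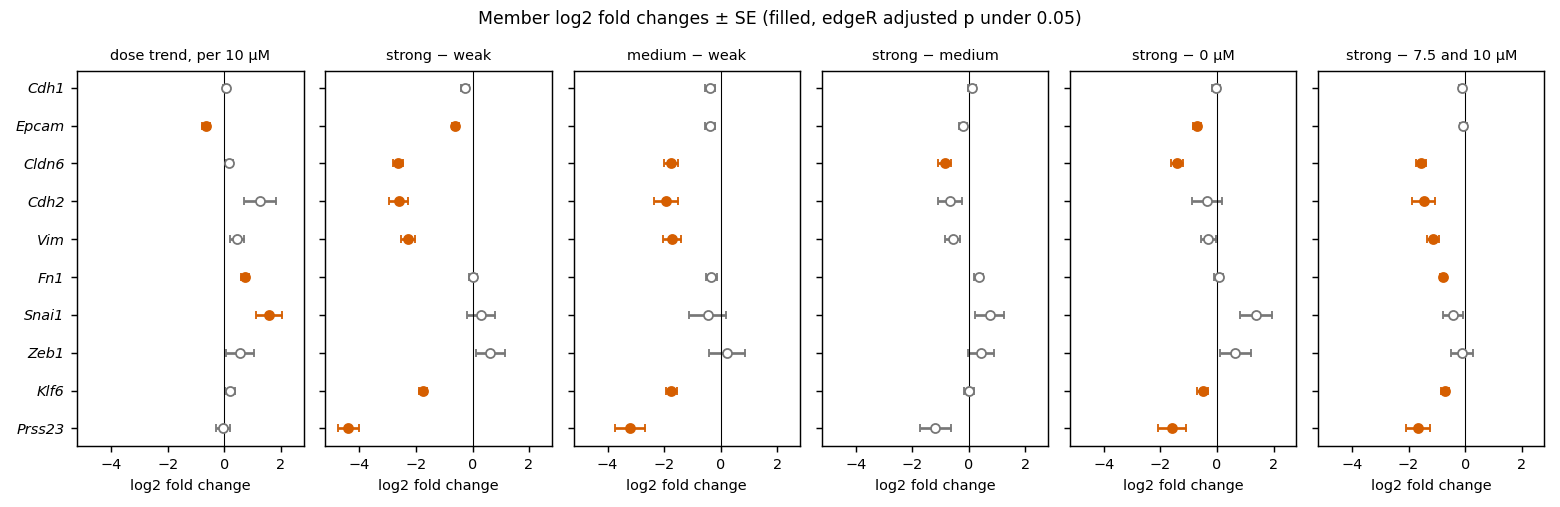
Log2 fold changes of the 10 members (horizontal axis) with their standard errors in the 6 comparisons, filled where the edgeR adjusted p was under 0.05. In every comparison among clones and against unedited cells the filled points lie left of 0, down to −4.40 for *Prss23* in strong against weak clones, whereas the dose trend holds 2 filled points on the right and 1 on the left.

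The other genes of these programmes were counted from lists of their known members, first for strong against weak clones. Of 36 mesenchymal and matrix genes listed 20 passed the low-count filter. Of these 20 tested genes 18 were lower in the strong clones and 1 was higher (median log2 −2.08). A gene high in the weak clones alone could pass this filter, so the counts of these lists are a description. *Col1a1*, a fibrillar collagen, was at 0.799 to 6.91 CPM in the strong clones and 34.7 to 126 CPM in the weak ones (−4.21 ± 0.41, adjusted p = 9.46e-08). It passed the filter through no strong clone. *Thbs1*, an adhesive matrix glycoprotein, was at 5.11 to 29.0 and 110.1 to 363 CPM, and *Tagln* at 34.1 to 86.1 and 373 to 1147 CPM. Of 34 tested epithelial junction and identity genes 23 were lower and 0 higher (median −1.08). The keratin genes led this list, with *Krt8* at 78.5 to 198 CPM in the strong and 505 to 1738 CPM in the weak clones (−3.02 ± 0.31, adjusted p = 2.20e-07), and *Krt18* and *Krt19* at −2.88 ± 0.27 and −2.66 ± 0.29. In all, 29.7% of genes were called in this comparison. Among 10 tested transition factors and inducers 3 were lower and 1 higher. *Tgfb2* was at 2.33 to 8.27 CPM in the strong and 25.6 to 112 CPM in the weak clones (−3.89 ± 0.34, adjusted p = 2.27e-08), and *Smad7*, an inhibitor of TGF-β signalling, was higher (1.21 ± 0.25, adjusted p = 0.000733). Without T41S H8 the counts were 14 lower and 0 higher of 20, 13 lower and 0 higher of 34, and 3 lower and 1 higher of 10.

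Of 8 other cadherins and catenins that passed the filter, 5 were lower and 1 higher in strong than in weak clones, against 29.7% of all genes called. P-cadherin (*Cdh3*) was at 4.82 to 14.9 CPM in the strong and 21.1 to 34.3 CPM in the weak clones (−1.63 ± 0.32, adjusted p = 0.000488), and it was also below the 30.4 and 38.3 CPM of untreated cells (−1.97 ± 0.29, adjusted p = 9.01e-06). *Ctnnd1*, which encodes p120-catenin, the stabilizer of cadherins at the membrane, was lower by 0.92 ± 0.13 on the log2 scale than in weak clones, yet higher than in untreated cells (0.62 ± 0.18, adjusted p = 0.00911). *Ctnna1*, the α-catenin that links cadherins to actin, fell by 0.33 ± 0.11 on the log2 scale (adjusted p = 0.0223), and *Celsr1*, an atypical cadherin of planar polarity, was higher (1.51 ± 0.30, adjusted p = 0.000576). *Ctnnb1* did not differ (−0.04 ± 0.09, adjusted p = 0.821). Without T41S H8, 2 of these 8 were lower and 1 higher.

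Markers of other cell types moved with the classes. Summed over 8 fibroblast markers, levels were 52.8 to 172 CPM in the weak and 4.82 to 26.7 CPM in the strong clones, and 7 of these 8 genes were also in the mesenchymal list. Summed neural markers were at 151 to 238 CPM in the weak and 21.6 to 97.0 CPM in the strong clones, and trophoblast markers at 90.5 to 127 and 32.8 to 50.6 CPM. Summed primitive endoderm markers overlapped, at 22.6 to 48.6 and 7.76 to 262 CPM, as did mesoderm and primitive streak markers, at 46.4 to 93.8 and 28.7 to 101 CPM, and *Afp* was at 0 in every library. The ES cell markers ran the other way, at 2294 to 3565 CPM in the weak and 4779 to 6091 CPM in the strong clones. Of these 10 markers 7 were higher in the strong than in the weak clones, against 29.7% of all genes called, with *Klf4* (1.93 ± 0.18) and *Dppa5a* (1.37 ± 0.15) among them. Untreated unedited cells were at 5361 and 5435 CPM, within the strong range, and against them 4 markers were higher and 3 lower in strong clones (34.0% of all genes called). Their summed neural markers were at 90.8 and 91.4 CPM, also within the strong range. Fibroblast (37.2 and 46.2 CPM) and trophoblast markers (85.1 and 89.1 CPM) lay between the strong and weak clones. The part of all these markers in the member differences was not tested. On the chromosomes that hold the members, the median log2 level of a clone against the median clone stayed between −0.17 and 0.06, with the lowest value in T41S H8.

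**Figure D4:**
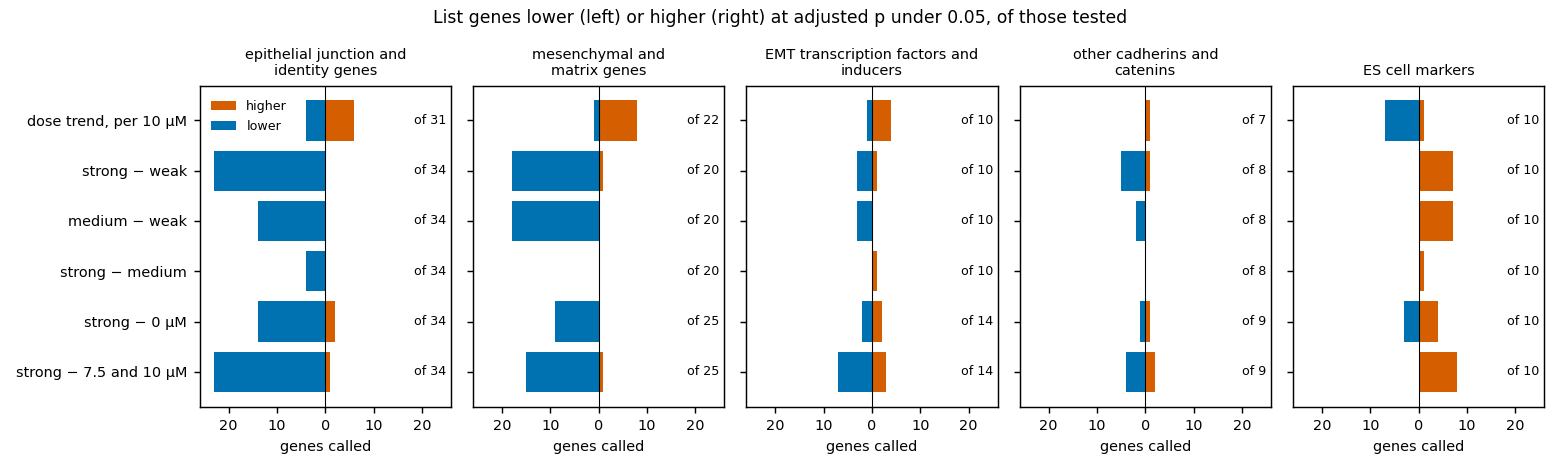
Number of genes of 5 lists that were lower (left of 0) or higher (right of 0) at an edgeR adjusted p under 0.05 in each comparison, with the number tested at the right edge. Epithelial (23 of 34) and mesenchymal genes (18 of 20) were lower in strong than in weak clones, while 8 of 22 mesenchymal genes rose with the dose. Over all genes 29.7% were called in the former comparison and 12.5% in the dose trend.

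Against untreated cells, 14 of 34 epithelial genes were lower and 2 higher in the strong clones, and 9 of 25 mesenchymal genes were lower and 0 higher, shares to be read against the 34.0% of all genes called. *Tjp3*, a tight junction scaffold, was at 8.27 to 21.9 CPM in the strong clones and 52.7 and 68.0 CPM in untreated cells (−2.26 ± 0.22, adjusted p = 8.05e-09), and *Cgn*, which encodes cingulin, at 15.6 to 24.6 and 61.7 and 68.5 CPM (−1.67 ± 0.22). *Loxl2*, a collagen cross-linking enzyme, was at 3.10 to 37.9 CPM and 95.7 and 114 CPM (−2.07 ± 0.33, adjusted p = 2.32e-05). Against the top doses the counts were 23 lower and 1 higher of 34 and 15 lower and 1 higher of 25, against 47.0% of all genes, led by *Krt19* (−2.83 ± 0.24) and *Cd44* (−2.95 ± 0.31). Between strong and medium clones 4 of 34 epithelial genes were lower, against 4.53% of all 10452 genes called. These were *Grhl2* (−1.73 ± 0.32), *Prss8* (−1.72 ± 0.28), *Esrp1* (−1.34 ± 0.25) and *Cgn* (−1.11 ± 0.22), with adjusted p between 0.00167 and 0.00723 (edgeR). In the same fit 0 of 20 mesenchymal genes passed, of which 8 had an unadjusted p under 0.05. *Grhl2* and *Esrp1* encode a transcription factor and a splicing regulator of epithelial cells.

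Over the 15 clones and the 7001 genes whose mean over the clones reached 20 CPM, the genes with a profile most like *Vim* were *Lgals1* (Pearson *r* = 0.951), *Wls* (0.946) and *S100a11* (0.946), on log2(CPM + 1). Galectin-1 (*Lgals1*) had mean levels of 864 CPM in the weak, 244 in the medium and 145 CPM in the strong clones. Those most like *Cdh1* were *Tsc22d4* (0.831), *Rnh1* (0.823) and *Hyal2* (0.815). These coefficients describe the clones, which share their cell line and T41S H8 as the highest point for *Cdh1* and *Vim*.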

How the data were processed

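Bulk 3′ RNA libraries were made by mcSCRB-seq, in which a unique molecular identifier tags each cDNA. The deposited counts are whole, deduplicated reads per gene, which the authors made by adapter trimming with Cutadapt, identifier extraction and deduplication with UMI-tools, removal of ribosomal reads with SortMeRNA, alignment to mm10 with RNA STAR, Picard MarkDuplicates and featureCounts (2.0.1 per the processing notes). The deposited counts are not normalized. The annotation release and the strand setting of the counting are not given in the sources used here, so reads of overlapping or antisense genes cannot be told apart. Counting at the 3′ end depends on the annotated end of each gene.

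Gene IDs were matched without version to a reference list of gene symbols, in which 48058 of 48440 were found. Gene coordinates are from GENCODE M21 (GRCm38). All 25 columns were used. CPM were computed from total counts of 306157 to 2083398 per library. Each comparison was fitted over all genes with edgeR 4.0.16 in R 4.3.3 (quasi-likelihood F-test, TMM scaling, low-count filter filterByExpr set to 10, Benjamini-Hochberg adjustment over all genes, threshold 0.05). The dose fit used the 10 unedited libraries with the dose as a linear term, scaled to 10 µM, and the class fit the 15 clones with 3 classes. A joint fit of all 25 libraries had 8 groups. Standard errors are the log2 fold change divided by the square root of F. The fits were tested on simulated data. The members, the lists and the classes were chosen with earlier results of these data known. Named list genes are up to 4 per list and comparison that passed the threshold, averaged 10 CPM or more and had the largest changes, and *Afp* was named because it was at 0. Alternatives were RLE scaling, total counts only, DESeq2 1.42.0, no filter, each library left out, a replicate block, factor levels of dose, mitochondrial share as a block or a subset, counts summed per mutation, codon groups, a linear term over classes, and only the groups compared. List counts without T41S H8 or an untreated library were added after seeing the data. Replicate numbers did not pair the libraries of different doses (correlations of their deviations −0.232 to 0.188).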

Additional observations from a re-analysis of the deposited data

Results flagged for a closer look

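Among the 9 strong clones, S37Y A5 stood apart from the others for *Snai1*, at 14.8 CPM from 30 counts, with a gap to the next clone that passed Dixon's 95% critical value of 0.493. It was the only 1 of 10 members tested in this way that did so, and about 1 in 20 such groups passes by chance. The effect of a strong mutation and that of 7.5 and 10 µM CHIR99021, both taken against untreated cells, differed by the test of the difference itself for 6 members, with log2 differences of −1.57 for *Cldn6*, −1.47 for *Cdh2*, −1.14 for *Vim*, −0.79 for *Fn1*, −0.71 for *Klf6* and −1.67 for *Prss23*. Both effects share the untreated libraries, so this is the comparison of strong clones with the top doses, in which 47.0% of all 11375 genes were called. Without 10 µM replicate 1 the difference in *Cdh2* was −0.82 (edgeR adjusted p = 0.131).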

How the results depend on the processing

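Of 989 member values under the alternatives, 958 kept their direction and side of the threshold or were not called in either setting, 22 called values no longer passed, 9 passed newly and 0 called values reversed. Codon 37 against codon 45 in place of the classes, mostly strong against medium clones, left 0 members and 324 genes. For strong against medium clones, no filter on low counts gave 3 members and 739 genes, and counts summed per mutation gave 0 members and 247 genes. With 1 library left out, the dose trend held 2 to 4 members and 527 to 1335 genes, strong against weak clones 6 to 7 and 1655 to 3189, medium against weak 4 to 6 and 275 to 1431, strong against medium 0 to 1 and 118 to 814, strong against untreated 2 to 5 and 1626 to 4109, and strong against top doses 5 to 6 and 3177 to 5531. The lowest counts came without 0 µM replicate 1 (dose and untreated), T41S H8 (weak class), S45F D9 (strong against medium) and 10 µM replicate 2 (top doses). Strong against medium clones also moved by over 1.5 times without either other medium clone (134 and 129 genes), S37A A10 (257), S37C G12 (264), S37Y A5 (314), T41A C1 (312) or T41I A6 (814), medium against weak without S45F C1 (687) or D9 (664), dose without 0 µM replicate 2 (778), and strong against untreated without 0 µM replicate 2 (2262). A replicate block over the doses called 3 members and 1140 genes and changed no member call. Libraries of 306157 counts and up limit *Snai1*, *Zeb1* and *Cdh2*, for which differences of a few counts could not be resolved.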
